A study of Mus musculus with 14 samples.

Results

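The genes described here encode 6 laminin chains (*Lama3*, *Lama5*, *Lamb1*, *Lamb2*, *Lamb3* and *Lamc1*), nidogen 1 (*Nid1*) and perlecan (*Hspg2*). They were chosen by name, and all 8 were found among the 54332 genes of a time course of SOX9 induction in epidermal stem cells (EpdSCs) of CD1 mouse back skin. Its 10 RNA-seq libraries, 2 biological replicates at each of 5 timepoints, came from mice carrying K14rtTA and TRE-myc-Sox9, in which the keratin 14 promoter drives a doxycycline (DOX)-dependent activator and DOX switches on a MYC-tagged *Sox9*. D0 cells came from P21 mice before induction, W1, W2 and W6 cells from mice of P28, P35 and P63 after 1, 2 and 6 weeks of DOX, and W12 cells from newborn skin grafted onto immunodeficient Nude mice and induced for 12 weeks. All mice were labelled male, Nude hosts (female) lack T cells but keep vessels and other immune cells, and cells were sorted as negative for CD31, CD45, CD117, CD140a and CD34 and high for CD49f and Ly6A. No age-matched uninduced libraries were analysed here, so time on DOX cannot be told apart from age, nor 12 weeks of SOX9 from grafting.

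The epidermal basement membrane is a sheet of extracellular matrix on which basal keratinocytes rest. Laminins, trimers of an α, a β and a γ chain, form one of its networks, type IV collagen forms the other, and nidogens and perlecan link them. Laminin-332, which contains the chains of *Lama3* and *Lamb3*, binds the integrin α6β4 of hemidesmosomes and anchors keratinocytes to the dermis, whereas laminin-511 and laminin-521 combine the chain of *Lama5* with that of *Lamc1* and of *Lamb1* or *Lamb2*.

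*Hspg2* rose above D0 at W1 and W2, the only one of the 7 genes tested with a called rise from D0. *Lamb3*, *Lamc1*, *Lamb2* and *Lama5* were lower than D0 at W6 and at W12, although at W6 the *Lama5* call was lost in 9 and the *Lamb2* call in 8 of 10 fits with a library left out, and the W12 direction of *Lama5* turned when transcript length and GC content were corrected for. *Lama3* fell at W6 and rose again to W12, where its ratio to *Lamb3*, its partner in laminin-332, was 0.598 against 0.149 at D0. *Nid1* was above 1 TPM only in the W12 libraries, which also held endothelial transcripts.

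The values are TPM (transcript abundances), which are scaled for transcript length and to a fixed total per library. The depth of the libraries is therefore unknown, and a share of RNA cannot be split into fewer cells of a kind and less RNA per cell. As a check of the labels, MYC-SOX9 was listed at 45.6 to 89.6 TPM at D0 and at 606 to 3414 TPM after induction. Summed basal keratinocyte markers stood at 35134 to 59892 TPM in every library, mostly *Krt14* and *Krt5*. Of the 7 markers, 6 were lower than D0 at W6 and 5 at W12, against 14.1% and 25.1% of all genes tested, with median log2 changes of −1.15 and −1.73 against 0.08 and −0.08, and *Krt15* went from a mean of 11584 TPM at D0 to 282 TPM at W12 (limma, adjusted *P* = 5.73e-05). *Krt14*, the most abundant of these markers, had means of 30499 TPM at D0 and 36519 TPM at W12. The markers include *Itga6*, *Itgb4* and *Col17a1*, which are given again below among the receptor and hemidesmosome genes. Whether the shift in the markers has a part in the falls of the 8 genes was not tested. D0 replicate 2 stood apart in sex-linked transcripts, with *Xist* at 4.61 TPM and *Ddx3y* at 0.0278 TPM, against at most 0.00665 TPM and 21.9 to 32.7 TPM in the other ungrafted libraries. Both W12 libraries held *Xist*, at 5.51 and 3.50 TPM, beside *Ddx3y* at 10.97 and 12.9 TPM. Summed fibroblast markers ranged from 3.07 to 58.1 TPM, with the highest value in W6 replicate 2. Annotated genes that overlap the 8 and are listed in the table were at most at 1.95 TPM, a pseudogene within *Lama3*, and at most at 0.1003 TPM for *Nid1*.

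*Lamb3*, the β chain of laminin-332, was the most abundant of the 8 genes at every timepoint, with a mean of 375 TPM at D0 and 112 TPM at W12. At D0 it was followed by *Lama3* (54.7 ± 15.2 TPM, SD, n = 2) and *Lamb2* (43.6 ± 10.7 TPM), whose replicates overlapped, and then by *Lama5* (17.3 ± 2.62 TPM), *Lamc1* (12.5 ± 0.786 TPM), *Lamb1* (3.24 ± 1.76 TPM), *Hspg2* (1.31 ± 0.0962 TPM) and *Nid1* (0.102 ± 0.0989 TPM). Apart from that pair, neighbours in this order did not overlap. The order then moved: *Lamb2* stood above *Lama3* in every W1 and W2 library, their replicates overlapped at W6, and *Lama3* stood above *Lamb2* in both W12 libraries. The same held of *Hspg2* and *Lamb1*, with *Hspg2* the higher at W1, W2 and W6 and the lower at D0 and W12. At W12 the replicates of *Lamb2* and *Lama5* overlapped, as did those of *Lamb1* and *Nid1*.

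**Figure D1:**
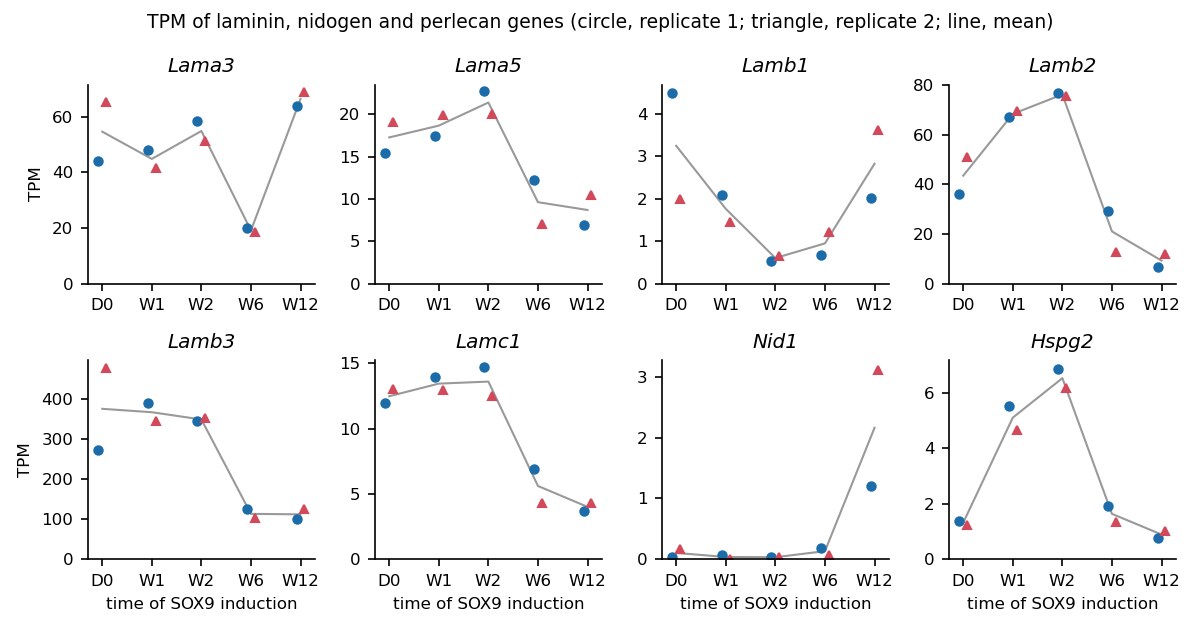
TPM of the 8 genes (vertical axes, starting at 0) at the 5 timepoints (horizontal axes), with 1 symbol per library and a line through the means of 2 replicates. *Lamb2*, *Lamb3*, *Lamc1* and *Lama5* step down between W2 and W6, *Lama3* dips at W6 only, *Hspg2* is high at W1 and W2, and *Nid1* is above 1 TPM only at W12.

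Of the 8 genes, 7 reached an average of 1 TPM across libraries and were tested among 13110 such genes with limma on log2(TPM + 1), with Benjamini-Hochberg adjustment and a threshold of 0.05; *Nid1*, at a mean of 0.492 TPM, was not. All 7 varied over the time course by limma's moderated F test (adjusted *P* between 0.000429 and 0.0299), as did 57.5% of all genes tested. At W1, 1 of the 7 was higher than D0 and 0 were lower, against 5.79% and 4.10% of all genes. At W2, 1 was higher and 1 lower, against 9.06% and 6.64%. At W6, 0 were higher and 6 lower, against 18.3% and 14.1%, and at W12 0 were higher and 4 lower, against 17.9% and 25.1%. The 6 calls at W6 became 3 to 5 when any 1 library was left out, with 3 without W6 replicate 2. With the length and GC correction the split of the 7 was 0 higher and 4 lower at W6, and 2 higher and 3 lower at W12. The median log2 change of the 7 from D0 was 0.10 at W1 and 0.11 at W2, near the 0.09 and 0.06 of all genes tested. It was −1.07 at W6 and −0.93 at W12, where the medians of all genes were 0.08 and −0.08. The length and GC correction put the median of the 7 at −0.80 at W6 and turned it to −0.15 at W1, −0.04 at W2 and 0.16 at W12. From W2 to W6, 0 of the 7 were higher and 6 lower, against 7.99% and 8.31% of all genes, but only 1 was lower without W2 replicate 1 and 2 without W2 replicate 2. From W6 to W12, 1 was higher and 0 lower, against 6.66% and 13.5%. Over all genes, median-ratio scaling changed the split of higher and lower calls from 759 and 537 to 549 and 677 at W1, from 1188 and 870 to 942 and 1121 at W2, from 2403 and 1848 to 1919 and 2330 at W6, and from 873 and 1769 to 1063 and 842 from W6 to W12.

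**Figure D2:**
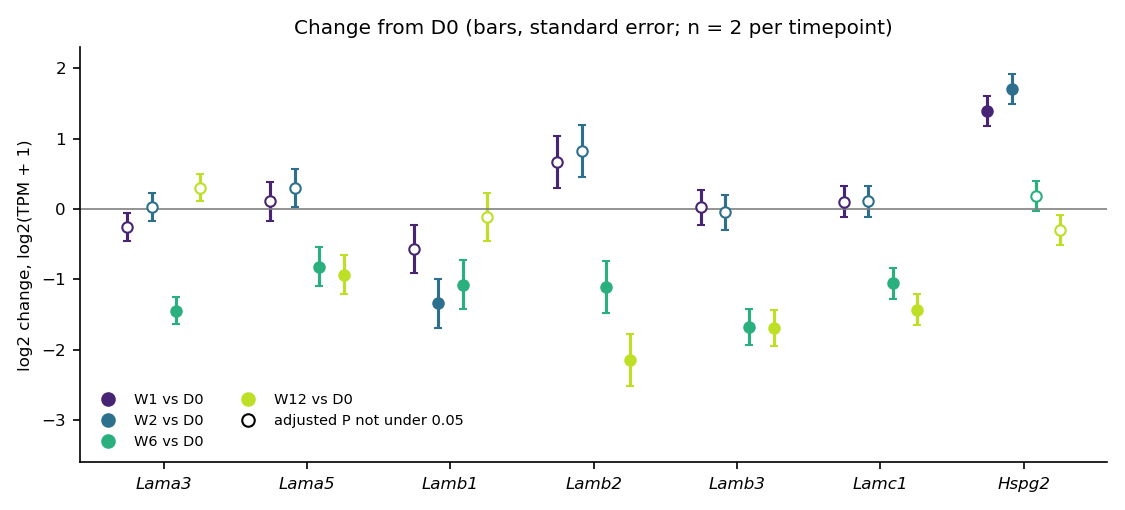
Log2 change from D0 on the log2(TPM + 1) scale (vertical axis) with its standard error for the 7 genes tested, 4 timepoints per gene and 2 libraries per timepoint, with filled symbols where the adjusted *P* was under 0.05. Filled symbols above 0 belong to *Hspg2* at W1 and W2 alone, and at W6 *Hspg2* is the only gene with an open symbol.

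The promoter of *Hspg2* is printed with those of *Lamb2* and *Lamb3*, the genes with the largest falls at W12, as the 250 bases before the RefSeq start on GRCm38.p6, all on the plus strand. Capitals mark GC boxes (GGGCGG on either strand), the letters bound by SP and KLF factors.
Hspg2, chr4:137468553-137468802: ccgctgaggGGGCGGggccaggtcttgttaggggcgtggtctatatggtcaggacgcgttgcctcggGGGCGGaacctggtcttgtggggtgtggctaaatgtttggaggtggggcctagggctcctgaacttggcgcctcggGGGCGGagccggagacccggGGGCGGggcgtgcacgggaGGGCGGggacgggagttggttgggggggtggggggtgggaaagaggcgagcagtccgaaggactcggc
Lamb2, chr9:108479612-108479861: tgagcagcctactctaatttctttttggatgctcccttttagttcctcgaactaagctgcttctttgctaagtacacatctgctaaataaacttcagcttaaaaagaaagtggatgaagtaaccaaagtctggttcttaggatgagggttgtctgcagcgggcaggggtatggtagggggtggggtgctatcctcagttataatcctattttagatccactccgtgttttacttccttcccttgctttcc
Lamb3, chr1:193301744-193301993: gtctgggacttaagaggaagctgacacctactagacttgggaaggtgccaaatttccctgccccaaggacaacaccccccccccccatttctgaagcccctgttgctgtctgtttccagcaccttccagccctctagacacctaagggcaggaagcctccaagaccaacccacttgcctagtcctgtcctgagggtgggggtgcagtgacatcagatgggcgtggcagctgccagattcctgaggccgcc
The *Hspg2* window held 5 GC boxes, whereas the windows of *Lamb2* and *Lamb3* held 0, including the window of the other RefSeq start of *Lamb3*. A GC box was found in 32.7% of all 32851 promoter windows of this length. The SOX core ACAANG, found in 36.3% of all windows on either strand, and the AP-1 site TGANTCA, found in 6.75%, were in none of the 3, and none of the marked boxes overlapped another motif searched. RefSeq windows were matched for 6 of the 8 genes. Those of *Lama5*, *Lamb1* and *Nid1* held 4, 2 and 1 GC boxes and likewise neither of the other motifs.

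*Hspg2* encodes perlecan, a heparan sulfate proteoglycan that binds laminins, nidogens and growth factors. The gene lies on chromosome 4 at 137468769 to 137570630 (GENCODE M21, GRCm38). Its libraries stood at 1.38 and 1.25 TPM at D0, 5.54 and 4.67 TPM at W1, 6.88 and 6.19 TPM at W2, 1.91 and 1.35 TPM at W6, and 0.756 and 1.02 TPM at W12. The 4 libraries of W1 and W2 were all above the other 6. The log2 change from D0 was 1.40 ± 0.21 (SE, limma, adjusted *P* = 0.00486) at W1 and 1.70 ± 0.21 (adjusted *P* = 0.00146) at W2, and from W2 to W6 *Hspg2* fell by 1.52 on the log2 scale (adjusted *P* = 0.00469, and at most 0.0594 with a library left out). Leaving out any 1 library kept both rises past the threshold, with log2 changes of 1.29 to 1.5 at W1 and 1.64 to 1.77 at W2. At W6 and W12 the change from D0 was 0.18 (adjusted *P* = 0.544) and −0.30 (adjusted *P* = 0.285). When transcript length and GC content were corrected for, the W12 value turned to 0.80 (adjusted *P* = 0.0251), so no direction is given for it. Summed pericyte and smooth muscle markers moved with *Hspg2*, at 38.3 to 44.0 TPM at W1 and W2 and 11.7 to 24.9 TPM at the other timepoints. *Cspg4*, *Acta2* and *Notch3* made up most of this sum, while *Pdgfrb*, *Des* and *Myh11* were at most at 0.0741 TPM in any library. *Rgs5*, another pericyte marker, was at 0.928 and 0.747 TPM at W1, 0.519 and 0.0865 TPM at W2, and at most at 0.0686 TPM in the other libraries. *Tagln* did not move with *Hspg2*, at 0.408 to 0.562 TPM from D0 to W6 and 1.62 and 2.06 TPM at W12. The part of such cells in the rise was not tested. The genes with the most similar pattern over the 10 libraries were *Vdr* and *Gprin3*, at mean absolute differences of 0.158 and 0.164 in centred log2(TPM + 1).

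*Lama3* encodes the α3 chain of laminin-332 and lies on chromosome 18 at 12333819 to 12583013. Its values were 43.9 and 65.4 TPM at D0, 48.2 and 41.6 TPM at W1, 58.4 and 51.4 TPM at W2, 19.8 and 18.4 TPM at W6, and 63.7 and 69.1 TPM at W12. Both W6 libraries were below the other 8. *Lama3* fell by 1.44 (SE 0.20, limma, adjusted *P* = 0.0012) on the log2 scale from D0 to W6 and rose by 1.75 (SE 0.20, adjusted *P* = 0.00079) from W6 to W12. It was the only gene of the 7 called between W6 and W12. The W12 libraries overlapped D0, with a log2 change of 0.30 ± 0.20 (adjusted *P* = 0.239), which was past the threshold without D0 replicate 2 (0.58, adjusted *P* = 0.0352) and with the length and GC correction (0.99, adjusted *P* = 0.00149). Its most similar genes were *Bst2*, an interferon-inducible membrane protein, and *B2m*, the light chain of MHC class I, at mean absolute differences of 0.194 and 0.211.

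*Lamb3* encodes the β3 chain, which is found in laminin-332 (chromosome 1, 193207699 to 193343878). The 10 libraries gave 272 and 478 TPM at D0, 389 and 344 TPM at W1, 344 and 353 TPM at W2, 124 and 102 TPM at W6, and 98.9 and 124 TPM at W12. The 4 late libraries were all below the 6 earlier ones, at 98.9 to 124 TPM against 272 to 478 TPM. The log2 change from D0 was −1.67 ± 0.25 at W6 (adjusted *P* = 0.00187) and −1.69 ± 0.25 at W12 (limma, adjusted *P* = 0.00114). Without D0 replicate 2, the higher of the pair, these were −1.27 (adjusted *P* = 0.0049) and −1.29 (adjusted *P* = 0.00297). The length and GC correction put the W12 change at −0.96 (adjusted *P* = 0.00356). The genes nearest to it in pattern were *Pbxip1* and *Sun1*, at 0.121 and 0.158.

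Within each library, the ratio of *Lama3* to *Lamb3* TPM had a geometric mean of 0.149 before induction, 0.122 to 0.170 over W1, W2 and W6, and 0.598 in the W12 grafts. Both W12 libraries were above the other 8. The 5 timepoints differed (exact permutation test of F over all pairings of the libraries, two-sided by construction, *P* = 0.0138, adjusted over 6 ratios 0.0402), and the W12 ratio exceeded the D0 ratio by 2.01 on the log2 scale. With any 1 library left out this difference was between 1.89 and 2.13, with adjusted *P* between 0.027 and 0.0889 and past the threshold in 4 of 10 cases.

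**Figure D3:**
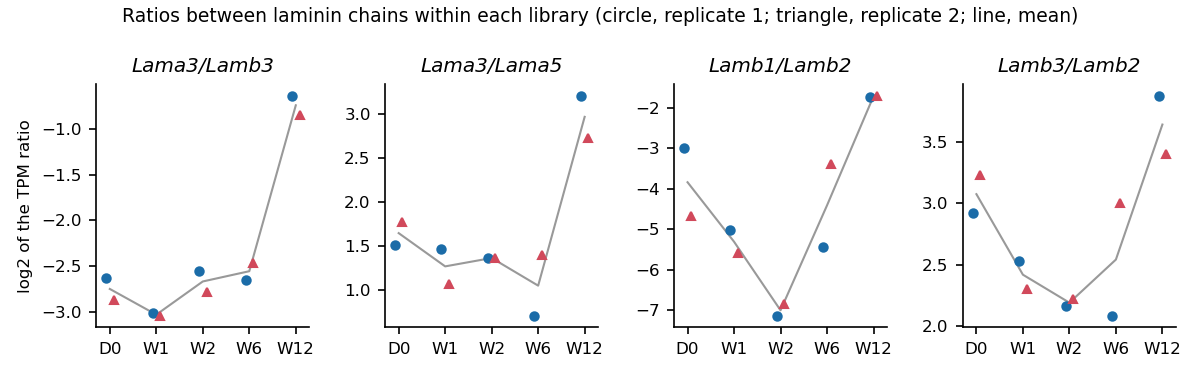
Log2 of the TPM ratio of 2 laminin chains within each library (vertical axes) at the 5 timepoints, with 1 symbol per library and a line through the means. *Lama3*/*Lamb3* and *Lama3*/*Lama5* are higher in both W12 libraries than in any other, and *Lamb1*/*Lamb2* is lowest at W2.

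*Lamc1* encodes the γ1 chain shared by most laminins outside the laminin-332 group (chromosome 1, 153218922 to 153332786). Its level was 11.9 and 13.0 TPM at D0, 13.9 and 12.9 TPM at W1, 14.7 and 12.5 TPM at W2, 6.92 and 4.29 TPM at W6, and 3.72 and 4.28 TPM at W12. The late and early libraries did not overlap. *Lamc1* fell from D0 by 1.06 (SE 0.22, limma, adjusted *P* = 0.0081) at W6 and by 1.43 (SE 0.22, adjusted *P* = 0.00136) at W12 on the log2 scale. The W6 call was lost when only the 4 libraries compared were fitted (adjusted *P* = 0.104), while the W12 call held with each library left out in turn. With the length and GC correction the W12 change was −0.69 (adjusted *P* = 0.0228). *Ehmt2*, a histone methyltransferase, and *Pacs2* were closest to it in pattern, at 0.111 and 0.118.

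*Lamb2* encodes the β2 chain and lies on chromosome 9 at 108479736 to 108490530. It was listed at 36.0 and 51.1 TPM at D0, 67.3 and 69.7 TPM at W1, 76.9 and 75.8 TPM at W2, 29.4 and 12.7 TPM at W6, and 6.75 and 11.8 TPM at W12. The W1 and W2 libraries were all above both D0 libraries, yet the log2 changes of 0.66 and 0.82 did not pass the threshold. *Lamb2* fell from D0 by 2.14 (SE 0.37, limma, adjusted *P* = 0.00233) on the log2 scale at W12, and this call held with each library left out in turn. With the length and GC correction the W12 change was −1.20 (adjusted *P* = 0.00848). At W6 the fall was 1.11 (SE 0.37, adjusted *P* = 0.0486), a call lost in 8 of 10 fits with a library left out (all but those without D0 replicate 1 or W6 replicate 1), and without W6 replicate 2 the change was −0.53 (adjusted *P* = 0.244). That library had *Dcn*, a fibroblast gene, at 51.2 TPM against 1.46 TPM in the other W6 library, and the part of this in the difference was not tested. *Itpr3* and *Cdh1*, the latter encoding E-cadherin of epithelial junctions, were most like it, at 0.169 and 0.183.

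*Lama5* encodes the α5 chain of laminin-511 and laminin-521 and lies on chromosome 2 at 180176373 to 180225859. Its values were 15.4 and 19.1 TPM at D0, 17.4 and 19.9 TPM at W1, 22.7 and 20.1 TPM at W2, 12.2 and 6.99 TPM at W6, and 6.91 and 10.5 TPM at W12. Both late timepoints lay below all 6 earlier libraries. The log2 change was −0.82 ± 0.28 (limma, adjusted *P* = 0.0495) at W6 and −0.93 ± 0.28 (adjusted *P* = 0.0244) at W12. Neither was stable. The W6 call was lost in 9 of 10 fits with a library left out (all but that without W6 replicate 1), and the W12 call without D0 replicate 2 or W12 replicate 1. Without D0 replicate 2 the adjusted *P* was 0.219 and 0.124, and with the length and GC correction the W12 change turned to 0.16 (adjusted *P* = 0.562). *Elmo3* and *Trafd1* had the nearest patterns, at 0.111 and 0.119. The ratio of *Lama3* to *Lama5* was 3.12 at D0, 2.06 at W6 and 7.80 at W12 (geometric means), and the timepoints differed (exact permutation test, *P* = 0.0349, adjusted over 6 ratios 0.0419). This call was lost in 9 of 10 cases with a library left out (adjusted *P* up to 0.0968).

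*Lamb1* encodes the β1 chain and lies on chromosome 12 at 31265234 to 31329644. It was listed at 4.49 and 1.99 TPM at D0, 2.07 and 1.44 TPM at W1, 0.541 and 0.657 TPM at W2, 0.680 and 1.21 TPM at W6, and 2.02 and 3.61 TPM at W12. The W2 and W6 libraries lay below all others, while the D0 and W12 libraries overlapped. The log2 change from D0 was −1.34 ± 0.34 (limma, adjusted *P* = 0.0319) at W2 and −1.07 ± 0.34 (adjusted *P* = 0.0422) at W6, and at W12 it was −0.12 (adjusted *P* = 0.805). Without D0 replicate 1, the higher of the pair, the W2 and W6 changes were −0.91 (adjusted *P* = 0.113) and −0.64 (adjusted *P* = 0.187). With each library left out in turn, the W2 call was lost in 5 and the W6 call in 7 of 10 fits. Summed fibroblast markers were likewise lowest at W2, at 3.07 to 3.10 TPM, and stood at 37.4 to 51.6 TPM at D0 and 30.8 to 43.1 TPM at W12. At W6 the sum was 3.36 TPM in replicate 1, with *Lamb1* at 0.680 TPM, and 58.1 TPM in replicate 2, the highest of all libraries, with *Lamb1* at 1.21 TPM, below every D0, W1 and W12 library. The difference between D0 and W2 in this sum was mostly that of *Thy1*, at 35.7 and 47.5 TPM at D0 and 0.350 and 0.821 TPM at W2. *Dcn* was at 1.44 and 1.63 TPM at D0 and 2.06 and 1.18 TPM at W2, and *Col1a1* was highest on average at W2, at 0.451 and 0.481 TPM. *Col1a2* and *Col3a1* were at most at 1.08 and 0.791 TPM, and *Pdgfra*, *Lum* and *Dpt* at most at 0.188 TPM, in any library, and the part of fibroblasts in the *Lamb1* values was not tested. Its nearest genes were *Adtrp* and *Gm48228*, at 0.173 and 0.195. The ratio of *Lamb1* to *Lamb2*, the alternative β chains beside α5, was 0.0697 at D0, 0.0252 in W1 cells, 0.00781 in W2 cells, 0.0470 at W6 and 0.303 at W12, and the timepoints differed (exact permutation test, *P* = 0.018, adjusted over 6 ratios 0.0402), a call lost in 6 of 10 cases with a library left out. *Lamb3* to *Lamb1* ran the other way, from 121 at D0 to 584 at W2 and 41.0 at W12 (*P* = 0.0328, adjusted 0.0419 by the same exact test), lost in 7 of 10 such cases. The ratio of *Lamb3* to *Lamb2* was 8.41 at D0, 4.57 at W2 and 12.4 at W12 and missed the threshold (exact test, *P* = 0.0508).

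*Nid1* encodes nidogen 1, which binds the γ1 chain of laminin and type IV collagen (chromosome 13, 13437551 to 13512269). It was listed at 0.0316 and 0.172 TPM at D0, between 0.00821 and 0.188 TPM at W1, W2 and W6, and at 1.20 and 3.12 TPM at W12. Both W12 libraries were above the other 8. With all genes above 0 TPM in the fit, an alternative that includes *Nid1*, its log2 change from D0 to W12 was 1.45 ± 0.28 (limma, adjusted *P* = 0.0179) and from W6 to W12 1.42 (adjusted *P* = 0.0347). The ratio of *Nid1* to *Lamc1* was 0.485 at W12 and at most 0.0215 before (geometric means, exact permutation test, *P* = 0.0201, adjusted over 6 ratios 0.0402), a call lost in 7 of 10 cases with a library left out. As this ratio rests on *Nid1* values down to 0.00821 TPM, its log2 difference between W12 and D0 was 6.36 as computed and 2.89 with a pseudocount of 1. Its relative *Nid2* was at 0.189 and 0.487 TPM at W12, and at most 0.0668 TPM before.

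The W12 libraries also held transcripts of endothelial cells, which themselves make a basement membrane, although the sort removed cells with CD31. *Pecam1*, which encodes CD31, was at 26.1 and 59.8 TPM, *Emcn* at 22.9 and 45.5 TPM, and *Cdh5* at 1.61 and 3.64 TPM, against at most 1.14, 0.163 and 0.0518 TPM in the other 8 libraries. The sum of the 8 endothelial markers was 96.9 to 224 TPM at W12 and 0.977 to 5.51 TPM before. Between the 2 W12 libraries, replicate 2 exceeded replicate 1 by 2.60 times for *Nid1*, 2.58 times for *Nid2*, 1.78 times for *Lamb1*, 2.29 times for *Pecam1* and 1.99 times for *Emcn*. Replicate 2 was the higher for all 8 genes described here, with *Lamb2* at 11.8 against 6.75 TPM and *Lama3* at 69.1 against 63.7 TPM. The receptor gene *Cd151* was also higher there, at 44.2 against 21.6 TPM, whereas *Plec* was lower, at 32.1 against 47.9 TPM. Summed immune markers were also highest at W12, at 105 to 128 TPM against 4.63 to 30.1 TPM, mostly *Cd74* at 102 and 124 TPM. Of 3 immune markers tested, 1 (*Cd74*) was higher than D0 at W12 (17.9% of all genes were), *Ptprc*, which encodes CD45, was at 0.0184 and 0.327 TPM, and *Cd3e* and *Cd207* were at most at 0.037 TPM, below both D0 libraries. Summed melanocyte markers were 12.4 to 14.1 TPM at W12, 2.09 to 7.29 TPM at D0, W1 and W2, and 5.47 and 13.1 TPM at W6. The part of other cells in the W12 values of *Nid1* and *Lamb1* was not tested.

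**Figure D4:**
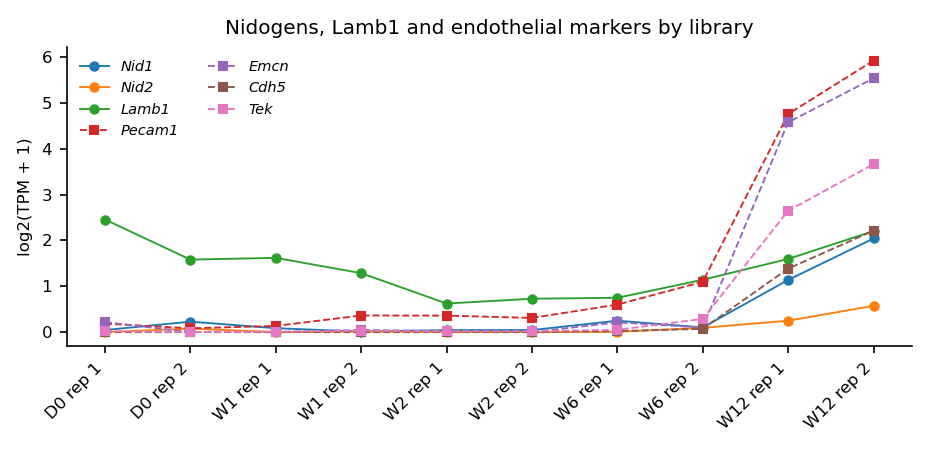
Log2(TPM + 1) (vertical axis) of *Nid1*, *Nid2* and *Lamb1* (circles, solid lines) and of 4 endothelial markers (squares, dashed lines) in each of the 10 libraries; the lines only join points of a gene. *Nid1* and *Pecam1* are highest in W12 replicate 2 and next in W12 replicate 1, whereas *Lamb1* is highest in D0 replicate 1.

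The rest of the basement membrane was read from 5 further lists. Of 7 collagens and proteoglycans tested, 7 were lower than D0 at W6 and 4 at W12, against 14.1% and 25.1% of all genes, with median log2 changes of −2.24 and −1.19 against 0.08 and −0.08. *Col4a5* and *Col4a6*, a type IV collagen pair, were lower at W12 by −2.44 and −3.01 on the log2 scale (limma, adjusted *P* = 5.79e-05 and 4.72e-05), as were *Agrn* (agrin, −1.99, adjusted *P* = 1.67e-05) and *Col7a1* (anchoring fibrils, −1.19, adjusted *P* = 0.000332). With the length and GC correction the *Agrn* change was −1.04 and the *Col7a1* call was lost (−0.04, adjusted *P* = 0.878). Earlier, *Col7a1* stood above its D0 values of 64.2 and 57.1 TPM, at 144 and 153 TPM at W1 and 114 and 102 TPM at W2. Of the 7 collagens and proteoglycans, 1 was called higher at W1 and 1 at W2, against 5.79% and 9.06% of all genes. *Col4a1* and *Col4a2*, the ubiquitous pair, were lower at W6 (−2.39 and −2.26), and at W12 their changes were −0.13 and −0.30, with adjusted *P* of 0.869 and 0.669. In the W12 libraries *Col4a1* was at 4.31 and 13.5 TPM and *Col4a2* at 4.06 and 9.71 TPM, the higher again in replicate 2.

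Of the other laminin, nidogen and netrin genes, 3 reached 1 TPM on average, *Lama4*, *Ntn4* and *Lama1*. *Lama4*, the α chain of vessel laminins, was called higher than D0 from W1 on. It stood at 1.19 and 0.552 TPM at D0, 2.92 and 2.67 TPM at W1, and 3.52 and 2.62 TPM at W2. At W6 its mean was 6.25 TPM, a log2 change of 1.97 (limma, adjusted *P* = 0.00115). Endothelial markers summed to 3.53 to 5.51 TPM at W6. At W12 the change was 1.18 (adjusted *P* = 0.00795), a call lost without D0 replicate 2 or W12 replicate 2. The part of endothelial cells in the *Lama4* values was not tested. *Ntn4*, a laminin-binding netrin, was lower at W12 by −1.33 (adjusted *P* = 0.00342). *Lama1* reached the filter only through D0, at 2.32 and 6.24 TPM, and was at most at 0.548 TPM in any later library. It is given as values only.

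None of the 14 receptor and hemidesmosome genes passed the threshold at W1 or at W2, against 5.79% higher and 4.10% lower at W1 and 9.06% and 6.64% at W2 over all genes. At W6, 9 were lower (14.1% of all genes), and at W12 8 were lower and 1 was higher (25.1% and 17.9% of all genes). Those lower at W12 included *Itgb4* (β4 integrin, −1.73, limma, adjusted *P* = 0.00158), *Itga3* (−2.14, adjusted *P* = 0.000583), *Dag1* (dystroglycan, −1.61, adjusted *P* = 0.00352), *Col17a1* (−1.77, adjusted *P* = 0.000951) and *Plec* (plectin, −2.17, adjusted *P* = 0.00201). The length and GC correction put these 5 changes between −1.31 and −0.71, all still past the threshold. *Itgb1*, the β1 integrin, was higher (0.78, adjusted *P* = 0.0089), a call lost without W12 replicate 2 (adjusted *P* = 0.0653). *Itga6*, whose product CD49f was a sorting marker, had a change of −0.52 (adjusted *P* = 0.0614), which was −0.80 without D0 replicate 1 (adjusted *P* = 0.0058).

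Of 9 assembly and linker genes tested, 4 were higher and 4 lower than D0 at W12, against 17.9% and 25.1% of all genes. Among the higher genes, *Pxdn*, named after its values were seen, reached the filter through W12, at a mean of 4.68 TPM. *Fbln2* (fibulin 2) and *Tinagl1*, a matrix protein that binds laminin, were higher by 3.0 and 3.65, and *Npnt* (nephronectin) and *Smoc2* lower by −2.69 and −2.33, on the log2 scale. Of 11 processing and turnover genes tested, 5 were higher and 3 lower at W12, against the same shares of all genes. *Mmp9*, a protease of type IV collagen, was at a mean of 43.7 TPM at W12 and 0.0789 TPM at D0, and *Timp1*, an inhibitor of such proteases, at 75.2 and 0.0776 TPM. *Mmp14* and *Timp3* were lower at W12 by −1.25 and −1.49.

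**Figure D5:**
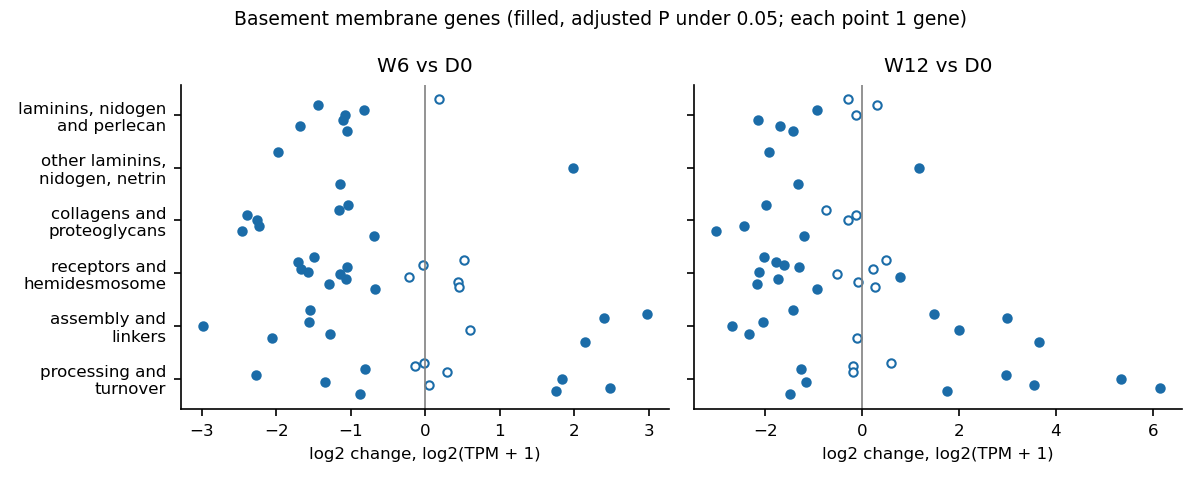
Log2 change from D0 at W6 (left) and W12 (right) on the log2(TPM + 1) scale (horizontal axes) for the genes tested in 6 lists of basement membrane genes, 1 point per gene and filled where the adjusted *P* was under 0.05. All 7 collagens and proteoglycans are filled on the negative side at W6, while assembly and turnover genes lie on both sides at both timepoints.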

How the data were processed

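RNA-seq libraries of sorted EpdSCs were analysed, 2 at each of D0, W1, W2, W6 and W12, grouped by the sample labels. The authors deposited TPM per gene, made with Salmon 1.4.0 on GRCm38 and summed to genes with Tximport 1.12.3, so depth and counting error are unknown. A table of the authors' DESeq2 comparison of 4 placode libraries was not used. The 8 genes and all lists were chosen with earlier results of these data known.

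The 13110 genes averaging 1 TPM or more were fitted as log2(TPM + 1), which understates changes of low genes, with limma 3.58.1 in R 4.3.3 (5 timepoint means, all 10 libraries, eBayes with trend, Benjamini-Hochberg adjustment, threshold 0.05). TPM do not permit the count test of the study. Ratios within libraries were compared by an exact permutation test over all pairings of the 10 libraries, adjusted over 6 ratios, with scipy 1.17.1. P values reflect the spread between the sampled mice. Besides the 8 genes, the text names 11 fixed basement membrane genes (another gene of this rule and its list is not reported here), the 2 largest rises and 2 largest falls past the threshold at W12 in each of 5 lists, and the 2 genes most similar to each gene tested over the 10 libraries. *Lamc1* and *Lama3* had no promoter window. Positions are from GENCODE M21.

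Alternatives were a pseudocount of 0.1, no or a stricter filter (5 TPM), quantile or median-ratio normalization, no variance trend, a fit of the 4 libraries compared, the replicate block, a length and GC correction, and each library left out. A block with crossed numbers was added after seeing the data. In simulated data of 13110 genes, 200 were changed at W12 against D0. There limma called 82% of those with a log2 change of 2, 44% of those with a log2 change of 1, and 0 in the wrong direction. Of its 133 calls, 126 were changed genes. In the data 5642 genes were called at W12, so these rates need not hold for them.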

Additional observations from a re-analysis of the deposited data

How the results depend on the processing

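Depth is unknown for TPM, so the smallest detectable level cannot be given, and with 2 replicates per timepoint calls near the threshold moved. Over all alternatives, 693 of the gene changes kept their direction and side of the threshold, 75 lost and 9 gained the threshold, and 36 turned direction; the cause was not tested.

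The number of the 7 genes called at W1 (1) was 0 with a mean of at least 5 TPM, which leaves *Hspg2* out, and 2 with the length and GC correction. At W2 (2) it was 1 with all genes, 0 with at least 5 TPM, 1 with only the 4 libraries compared and 1 to 2 with a library left out. At W6 (6) it was 3 with all genes, 2 with only 4 libraries and 3 to 5 with a library left out, with 3 without either W1, either W2 or W6 replicate 2. At W12 the split of 0 higher and 4 lower was 2 and 3 with the length and GC correction. From W2 to W6 (6) it was 3 with only 4 libraries and 1 to 6 with a library left out, with 1 without W2 replicate 1. From W6 to W12 (1) it was 2 with all genes, a fit in which 8 genes were tested and *Nid1* was the added call, 2 with the length and GC correction and 1 to 3 with a library left out.

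Same-numbered replicates are different mice, and deviations of same-numbered libraries had correlations of −0.129 to 0.093. With the replicate block, 1 gene was called at W2 and 3 at W6, and no other count of the 7 moved by over 1.5 times. The block changed the calls of *Lama5* and *Lamb1* among others, at adjusted *P* of 0.0507 to 0.0716. The count over all genes from W2 to W6 went from 2137 to 1396. With crossed numbers, 2 were called from W6 to W12.

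Over all genes, the calls at W1 (1296) became 606 with all genes above 0 TPM and 411 with only 4 libraries, those at W2 (2058) 1011 and 1086, and those from W2 to W6 (2137) 940 and 966. With only 4 libraries, those at W6 (4251) became 1094 and those from W6 to W12 (2642) 887. With a library left out they ranged from 377 to 1773, 652 to 2647, 2356 to 5047 and 3362 to 6291 at W1, W2, W6 and W12 (5642), from 207 to 3179 from W2 to W6 and from 761 to 3223 from W6 to W12. The higher and lower calls from W6 to W12 (873 and 1769) were 1181 and 1244 with all genes, 1070 and 1264 with quantile normalization and 949 and 1109 with the length and GC correction.

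Changes that turned direction were the following. Median-ratio scaling gave −0.058 for *Lama3* at W2, −0.0060 for *Lama5*, −0.10 for *Lamb3* and −0.014 for *Lamc1* at W1, and 0.027 for *Lama5* and 0.14 for *Lamb3* from W6 to W12. Quantile normalization gave −0.0012 for *Lama3* at W2, −0.0015 for *Lamb3* at W1, −0.088 for *Hspg2* at W6, and 0.068 for *Lama5* and 0.050 for *Lamb3* from W6 to W12. The length and GC correction gave −0.18 for *Lama3* at W2, −0.30 for *Lama5*, −0.15 for *Lamb3* and −0.14 for *Lamc1* at W1, −0.044 for *Lamc1* at W2, 0.16 for *Lama5*, 0.52 for *Lamb1*, 0.80 for *Hspg2*, 0.82 for *Col4a1* and 0.75 for *Col4a2* at W12, and 0.64 for *Lama5*, 0.47 for *Lamb3*, 0.11 for *Lamc1* and 0.31 for *Hspg2* from W6 to W12. With the same correction *Lamb2*, *Lamb3* and *Lamc1* were still called lower than D0 at W12, at −1.20, −0.96 and −0.69.

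With a library left out, *Lama3* ranged from −0.54 to 0.026 at W1 and from −0.25 to 0.31 at W2, *Lama5* from −0.036 to 0.26 at W1 and from −0.48 to 0.25 from W6 to W12, *Lamb1* from −0.55 to 0.32 at W12, and *Lamb3* from −0.38 to 0.42 at W1, from −0.45 to 0.35 at W2 and from −0.18 to 0.15 from W6 to W12. *Col4a1* ranged from −0.85 to 0.59 and *Col4a2* from −1.03 to 0.43 at W12. *Lama5* at W12 had an adjusted *P* of 0.166 without W12 replicate 1.

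The log2 differences in ratio between W12 and D0 with a library left out ranged from 1.08 to 1.56 for *Lama3*/*Lama5*, −2.55 to −0.57 for *Lamb3*/*Lamb1*, 0.33 to 0.80 for *Lamb3*/*Lamb2*, 1.28 to 2.96 for *Lamb1*/*Lamb2*, 1.89 to 2.13 for *Lama3*/*Lamb3* and 5.20 to 7.51 for *Nid1*/*Lamc1*. None of these differences turned direction, but calls were lost in the cases given with each ratio. A pseudocount of 1 put *Lamb3*/*Lamb1* at −1.57 (adjusted *P* = 0.0533, exact permutation test).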
